A study of Mus musculus with 5 samples.

Results

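The 8 genes described here encode enzymes, transporters and a membrane protein of peroxisomal fatty acid oxidation: Ehhadh, Hsd17b4, Acaa1a, Abcd2, Abcd3, Scp2, Decr2 and Pex11a. They were chosen by name, with no measured value in the rule but with earlier results of these data known, and all 8 have a row among the 17015 genes of the deposited table. RNA-seq had been performed on tibialis anterior (TA) muscle, a fast-twitch hindlimb muscle, of 8-week-old sedentary male mice. The labels give 3 WT control libraries and 2 skmNrip1-/- libraries, in which Cre recombinase under the myogenin promoter, active in the skeletal muscle lineage, deletes a floxed exon 4 of Nrip1. Per the methods, the Nrip1 fl/fl line was C57BL/6J and was crossed to C57BL/6JN mice that carry the Cre. Nrip1 encodes RIP140, a transcriptional corepressor, and per the study's methods the controls were Cre-negative littermates.

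Peroxisomes shorten fatty acids that mitochondria handle poorly, such as very long-chain, branched and dicarboxylic acids. Acyl-CoAs enter through ABCD transporters, an acyl-CoA oxidase makes the first double bond, a bifunctional protein hydrates and dehydrogenates, and a thiolase releases acetyl-CoA. The shortened products pass to mitochondria. In liver many of these genes are targets of the nuclear receptor PPARα, whereas skeletal muscle holds few peroxisomes and relies mainly on mitochondrial β-oxidation.

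The targeted gene was checked first. Levels are given in FPKM, the fragments of a gene divided by its transcript length in kilobases and by a library scale. The FPKM of Nrip1 was 4.64, 7.69 and 6.55 in the 3 WT control replicates in order, against 25.3 and 22.5 in those labelled skmNrip1-/-. Its log2 fold change was 1.94 with a standard error of 0.21 (limma, adjusted p = 0.0261), higher in the libraries labelled as knockout, against that label. The call was lost without WT control replicate 3 or without either library labelled skmNrip1-/-, with adjusted p-values up to 0.189, and also without the variance trend (limma, adjusted p = 0.0769) and with the replicate number as a block (limma, adjusted p = 0.128). The table holds 1 value per gene, so exon 4 cannot be read on its own, and each direction below rests on the labels. Skeletal muscle genes were abundant in all libraries, with FPKM sums over 10 markers of 81786 to 110388 in WT control TA, against 80171 to 83425 in those labelled skmNrip1-/-. In TA tissue, fewer cells of a type and less RNA per cell cannot be told apart.

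None of the 8 genes passed the test for a difference between genotypes. At the deposited scaling, Abcd3, Hsd17b4, Pex11a and Ehhadh had FPKM 24.1% to 34.3% higher on average in the libraries labelled skmNrip1-/-, with no overlap between groups. Abcd2, Scp2, Acaa1a and Decr2 overlapped. The test was a limma fit of log2(FPKM + 0.1) over the 12148 genes averaging 0.5 FPKM or more, 2-sided, and a call required both an adjusted p no larger than 0.05 and a fold change no smaller than 1.2. By this rule 0 of the 8 were called in either direction, where 0.37% of all genes tested were called higher and 0.0823% lower. At an unadjusted p of 0.05 or less, 3 of the 8 were higher, where 6.57% of all genes were, and 0 were lower, where 5.33% were. The log2 fold change was above 0 for 6 of the 8, where it was for 49.9% of all genes. Both libraries labelled skmNrip1-/- lay above every WT control library for 4 of the 8, where 15.8% of all genes showed this, and below for 0 of the 8, where 14.4% did. The median log2 fold change was 0.28 over the 8 genes and -0.00 over all genes tested. The 5 libraries allow 10 splits, so the smallest one-sided p of an exact permutation test for a single gene is 0.1.

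The count of 3 depended on single libraries. It was 2 without WT control replicate 1, 5 without WT control replicate 2 and 0 without WT control replicate 3. It was 0 and 1 without replicates 1 and 2 labelled skmNrip1-/-. Rescaling to TPM, in which each library sums to the same total, took the all-gene median of the log2 fold change to -0.29, and at that scale 0 of the 8 were higher and 1 was lower at an unadjusted p of 0.05 or less. That gene was Acaa1a, at -0.36 (limma, adjusted p = 0.104), which is -0.07 relative to the median of all genes. Relative to that median, the 8 genes had a median of 0.28. This repeats the value at the deposited scaling, because rescaling shifts all genes nearly alike and the subtraction removes that shift. Abcd3, Hsd17b4, Pex11a and Ehhadh, which did not overlap at the deposited scaling, all overlapped between groups after rescaling to TPM.

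The ABCD transporters are half-transporters that carry acyl-CoAs across the peroxisomal membrane. Abcd3, the most abundant protein of that membrane in liver, had an FPKM of 25.9, 34.8 and 29.3 in the 3 WT control replicates in order, against 40.2 and 40.4 in those labelled skmNrip1-/-. Both of the latter lay 15.4% or more above the highest control, WT control replicate 2. The log2 fold change of Abcd3 was 0.43 (standard error 0.14, 95% interval 0.10 to 0.77), the largest of the 8, and was not called (limma, adjusted p = 0.309). Abcd3 (ENSMUSG00000028127) lies at chr3:121758774-121815302 on the minus strand of GRCm38 and has 6 annotated transcripts.

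Abcd2, a paralog that favors very long-chain polyunsaturated acyl-CoAs and is abundant in fat tissue, had an FPKM of 9.27, 13.3 and 9.85 in WT control TA, against 12.8 and 12.9 in those labelled skmNrip1-/-. WT control replicate 2 was the highest of the 5 libraries, so the groups overlapped. The log2 fold change was 0.26 (standard error 0.17, 95% interval -0.14 to 0.67; limma, adjusted p = 0.618), it was 0.42 without WT control replicate 2 (limma, adjusted p = 0.187), and it was -0.03 after rescaling to TPM. The FPKM sum over 6 adipocyte markers overlapped between groups, at 8.18 to 14.9 in WT control TA and 12.8 to 12.9 in the libraries labelled skmNrip1-/-, and was lowest in WT control replicate 2, where Abcd2 was highest. Abcd2 (ENSMUSG00000055782) lies at chr15:91145871-91191799 on the minus strand.

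**Figure D1:**
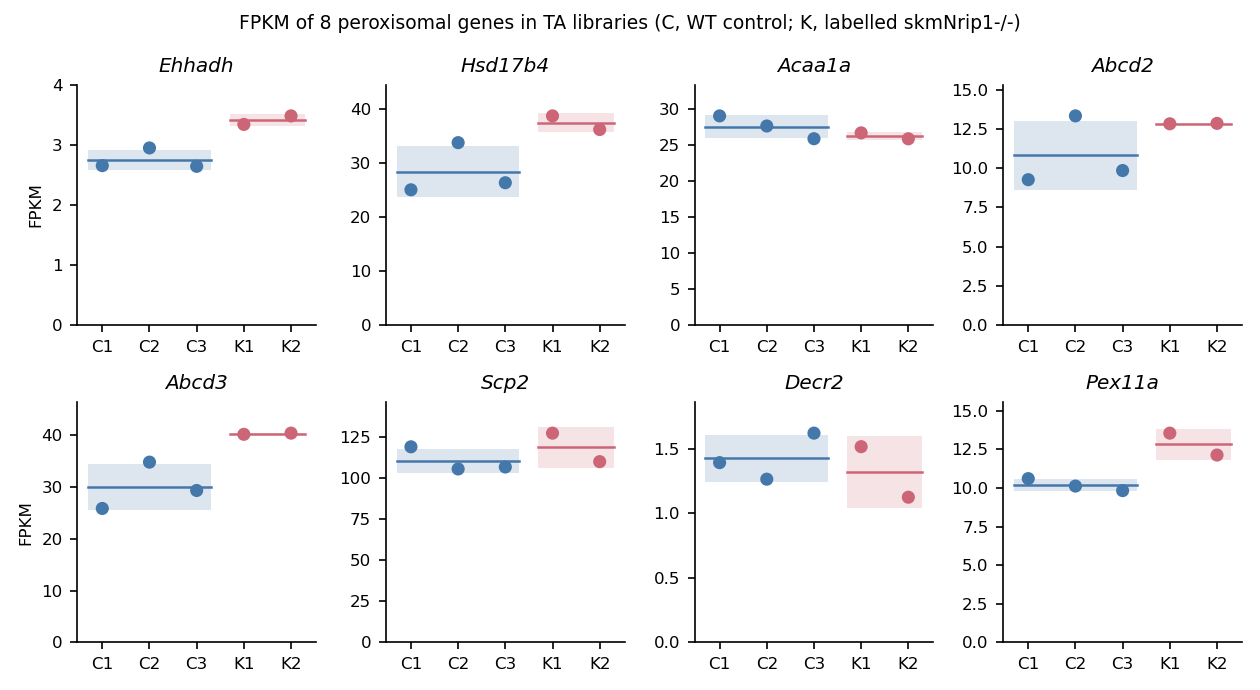
FPKM of each of the 8 genes (vertical axes, each from 0) in WT control replicates 1 to 3 (C1 to C3) and in replicates 1 and 2 labelled skmNrip1-/- (K1, K2), with the group mean as a line and 1 SD as a band. At the deposited scaling shown, both K libraries lie above every C library for Abcd3, Hsd17b4, Pex11a and Ehhadh. WT control replicate 2 is the highest control for Abcd2, Abcd3, Hsd17b4 and Ehhadh.

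The bifunctional proteins carry out the hydration and dehydrogenation steps. Hsd17b4, the D-bifunctional protein that serves very long-chain and branched substrates, had an FPKM of 25.03, 33.8 and 26.3 in the 3 WT control replicates in order, against 38.7 and 36.2 in those labelled skmNrip1-/-. The groups did not overlap, and the smaller of the latter lay 7.19% above WT control replicate 2. Its log2 fold change of 0.41 (standard error 0.15, 95% interval 0.05 to 0.77) was not called (limma, adjusted p = 0.359). Without WT control replicate 2 it was 0.54 (limma, adjusted p = 0.118). Hsd17b4 (ENSMUSG00000024507) lies at chr18:50128201-50196269 on the plus strand, with 24 exons in its longest transcript.

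Ehhadh, the L-bifunctional protein, is a classic PPARα target in liver and the preferred enzyme for dicarboxylic acids. Its FPKM was 2.65, 2.95 and 2.64 in the 3 WT control replicates in order, against 3.34 and 3.48 in those labelled skmNrip1-/-. All 5 values were low, and the groups did not overlap. The log2 fold change was 0.30 (standard error 0.13, 95% interval -0.01 to 0.62; limma, adjusted p = 0.440). In WT control TA the mean FPKM of Ehhadh was 2.75 ± 0.173 (SD, n = 3), against 28.4 ± 4.70 (SD, n = 3) for Hsd17b4, so the D-bifunctional protein was the more abundant transcript per length in every library. Ehhadh has a single annotated transcript of 2981 nucleotides (ENSMUSG00000022853, chr16:21761287-21787807, minus strand).

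The thiolases cleave the chain at the end of each cycle. Acaa1a, the straight-chain thiolase, had an FPKM of 29.0, 27.6 and 25.8 in WT control TA, against 26.7 and 25.8 in those labelled skmNrip1-/-. The values overlapped, and the log2 fold change was -0.07 (standard error 0.10, 95% interval -0.31 to 0.18; limma, adjusted p = 0.864). Acaa1a (ENSMUSG00000036138) lies at chr9:119339676-119350299 on the plus strand. Of the 31-base stretches in its longest transcript, 19.9% also occur in Acaa1b, a near-identical paralog, and an exon of Acaa1a overlaps Myd88 on the other strand, so fragments of these genes may have been split between them. Acaa1b had a mean of 2.09 ± 0.212 FPKM (SD, n = 3) in WT control TA, against 1.93 ± 0.0179 (SD, n = 2) in those labelled skmNrip1-/-, and differed by -0.10 on the log2 scale (limma, adjusted p = 0.857).

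Scp2 encodes both the thiolase for branched chains and, from a shorter transcript, a sterol carrier protein. Its FPKM was 118.9, 105.4 and 106.6 in the 3 WT control replicates in order, against 127.2 and 109.9 in those labelled skmNrip1-/-. Replicate 1 labelled skmNrip1-/- was the highest and replicate 2 lay among the controls. For Scp2 the log2 fold change was 0.10 (standard error 0.12, 95% interval -0.18 to 0.38; limma, adjusted p = 0.804) and became -0.20 after rescaling to TPM. Scp2 (ENSMUSG00000028603) lies at chr4:108043839-108144998 on the minus strand. A pseudogene, Scp2-ps2, holds 45.4% of the 31-base stretches of the longest Scp2 transcript, which makes this level uncertain. The table gives 1 value for the gene, so the thiolase and the carrier protein transcripts cannot be separated.

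Decr2, the dienoyl-CoA reductase needed for unsaturated chains, was the least abundant of the 8. Its FPKM was 1.39, 1.27 and 1.62 in WT control TA, against 1.52 and 1.13 in those labelled skmNrip1-/-. These values overlapped, and the library labelled skmNrip1-/- replicate 2 was the lowest. The difference of -0.11 on the log2 scale (standard error 0.21, 95% interval -0.61 to 0.39; limma, adjusted p = 0.889) had the widest interval of the 8, and it was 0.090 without that library. Decr2 (ENSMUSG00000036775) lies at chr17:26081208-26090337 on the minus strand, and 9.12% of its 31-base stretches also occur in transcripts of other genes.

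Pex11a is a peroxisomal membrane protein that elongates and divides the organelle. Its FPKM was 10.6, 10.1 and 9.83 in the 3 WT control replicates in order, against 13.6 and 12.1 in those labelled skmNrip1-/-. The groups did not overlap, and WT control TA was tighter than for any other of the 8 genes (SD 3.85% of the mean). For Pex11a the log2 fold change was 0.33 (standard error 0.11, 95% interval 0.07 to 0.59; limma, adjusted p = 0.319). Pex11a (ENSMUSG00000030545) lies at chr7:79735957-79743131 on the minus strand. Its paralog Pex11g had a mean of 1.32 ± 0.269 FPKM (SD, n = 3) in WT control TA, overlapping groups and a log2 fold change of 0.11 (limma, adjusted p = 0.893), which was -0.17 after rescaling to TPM.

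**Figure D2:**
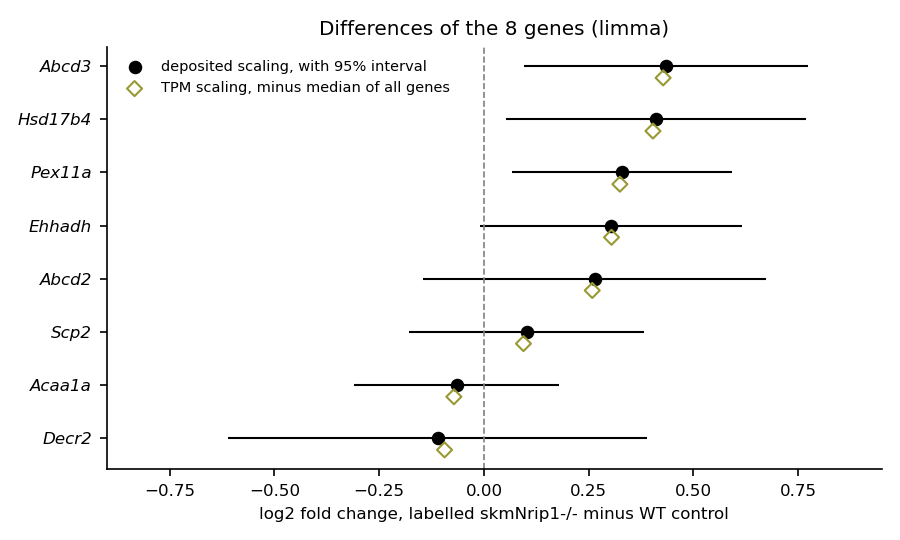
Log2 fold change of each of the 8 genes, libraries labelled skmNrip1-/- minus WT control (horizontal axis), with the 95% interval from limma (filled points and lines), and the same after rescaling to TPM minus the all-gene median at that scale (open diamonds). The intervals of Abcd3, Hsd17b4 and Pex11a lie above 0 before adjustment for the number of genes tested. Rescaling shifts all genes nearly alike, so the diamonds lie within 0.02 of the points by construction and are no separate check. Before the median was subtracted, the TPM values were 0.14 for Abcd3, 0.11 for Hsd17b4 and 0.03 for Pex11a.

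In order of mean level in WT control TA, Scp2 stood first at 110.3 ± 7.45 FPKM (SD, n = 3), followed by Abcd3 (30.01 ± 4.51), Hsd17b4 (28.4 ± 4.70) and Acaa1a (27.5 ± 1.58), whose ranges overlapped. Abcd2 (10.8 ± 2.20) and Pex11a (10.2 ± 0.392) also overlapped, and Ehhadh and Decr2 stood apart below them. The 8 genes together summed to 212.1 to 229.3 FPKM in WT control TA and to 241.9 to 264.0 FPKM in the libraries labelled skmNrip1-/-. As a share of the FPKM sum of each library, they were 0.0195% to 0.0222% and 0.0188% to 0.0205%, which overlapped.

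The scaling between libraries was largely set aside by giving each gene relative to the mean log2(FPKM + 0.1) of the 8 in the same library. On that scale Abcd3 was 0.97, 1.27 and 1.14 above the mean in WT control TA and 1.30 and 1.41 above it in the libraries labelled skmNrip1-/-. Acaa1a was 1.14, 0.93 and 0.96 above the mean in WT control TA and 0.71 and 0.77 above it in the libraries labelled skmNrip1-/-. On average Abcd3 differed by 0.23 and Acaa1a differed by -0.27 on this scale in the libraries labelled skmNrip1-/-, in both cases without overlap. Hsd17b4 did not overlap either, at 0.93 to 1.22 and 1.24 to 1.25, whereas Ehhadh, Abcd2, Scp2, Decr2 and Pex11a overlapped on this scale. The mean log2 fold change of the 8 was 0.21, so a gene with no difference falls by about that much here. Acaa1a, whose FPKM overlapped between groups, lay near such a gene. The share of all genes without overlap on this scale was not counted.

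The library scale by which FPKM had been divided ran from 0.818 to 1.11 relative to WT control replicate 1. For genes with 1 annotated transcript, FPKM multiplied by the transcript length less 320 to 330 nucleotides fell on regular steps, each the worth of 1 fragment, and 98.8% to 99.3% of low values lay within 0.1 of a whole step. With WT control replicate 1 as 1, these steps put the scale of the other controls at 1.11 and 1.01. That of the libraries labelled skmNrip1-/- was 0.818 and 0.975. FPKM were level between libraries by the median of ratios, so this scale need not follow the total of fragments sequenced. That total was not estimated. At the length of the longest transcript, less the same number of nucleotides, Ehhadh stood on about 350 to 446 fragments per library, Decr2 on about 103 to 154 and Abcd3 on about 4063 to 6167. In WT control TA, counting error alone would give Ehhadh an SD of 4.83% to 5.35%, against a spread between replicates of 6.31%. For Abcd2 it would be 1.62% to 2.04%, against a spread of 20.3%.

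The pattern of Abcd3 over the 5 libraries was most like that of Ints12, Tmx3, Stard7, Zfp451 and Slc22a23. The root mean squared difference of log2 values, each gene centered on its own mean, was 0.02 for Ints12 and 0.03 for the other 4 genes. Of the other 7 peroxisomal genes, Hsd17b4 was nearest, at 0.05 and 30th among all genes tested, and Decr2 was farthest, at 0.36. Ints12, Tmx3, Stard7, Zfp451 and Slc22a23 are in none of the peroxisomal lists below.

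Other peroxisomal acyl-CoA genes, from a list of 26 covering oxidases, transporters, thioesterases and carnitine transferases, were compared in the same fit. Of these, 21 were tested, 0 were called, 6 had an unadjusted p of 0.05 or less and were higher, and 0 were lower. At that threshold 6.57% of all genes were higher and 5.33% lower, and these shares also apply to the lists that follow. The median log2 fold change was 0.14 (0.22 and 0.23 without WT control replicates 2 and 3). Ech1, a dienoyl-CoA isomerase also found in mitochondria, had the largest difference, with 149.9 ± 10.1 FPKM (SD, n = 3) in WT control TA against 246.9 ± 26.2 (SD, n = 2) and thus a log2 fold change of 0.72 with a standard error of 0.12 (limma, adjusted p = 0.0953). Slc27a2, a very long-chain acyl-CoA synthetase, had the lowest, at -0.22 (limma, adjusted p = 0.569). Of genes singled out after their values were seen, Phyh, which starts the breakdown of phytanic acid, had a log2 fold change of 0.53 (limma, adjusted p = 0.242), and Eci2, an enoyl-CoA isomerase of peroxisomes and mitochondria, one of 0.48 (limma, adjusted p = 0.143).

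The peroxins build the organelle and import its enzymes. All 15 peroxins of the list were tested and 0 were called. At an unadjusted p of 0.05 or less 1 was higher, where 6.57% of all genes were. The median log2 fold change was 0.08, which was -0.0049 without replicate 1 labelled skmNrip1-/-. Pex2, a ubiquitin ligase subunit of the import machinery, had the largest difference, 0.33 (limma, adjusted p = 0.319). Of 16 redox and other matrix genes, 14 were tested, 0 were called, 3 were higher at an unadjusted p of 0.05 or less, and the median was 0.20.

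Cat, the catalase that removes the hydrogen peroxide made by acyl-CoA oxidases, had an FPKM of 34.1, 44.7 and 36.0 in WT control TA, against 63.1 and 66.9 in those labelled skmNrip1-/-. The groups did not overlap, and the log2 fold change was 0.77 with a standard error of 0.14 (limma, adjusted p = 0.110); without WT control replicate 2 it was 0.89 and was called (limma, adjusted p = 0.0431). Red cells are rich in catalase, and the FPKM sum over 5 blood markers was 511.1 to 764.2 in WT control TA and 827.3 to 995.5 in the libraries labelled skmNrip1-/-. The part of blood in the Cat values was not tested. Hao2, a hydroxy acid oxidase, had the lowest difference among the matrix genes, -0.21 (limma, adjusted p = 0.798). For ether lipid synthesis, 4 of 5 genes were tested, 0 were called, the median was 0.09 (-0.07 without WT control replicate 1), and the values ran from -0.17 for Tmem189 to 0.33 for Gnpat (limma, adjusted p = 0.653 and 0.275).

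**Figure D3:**
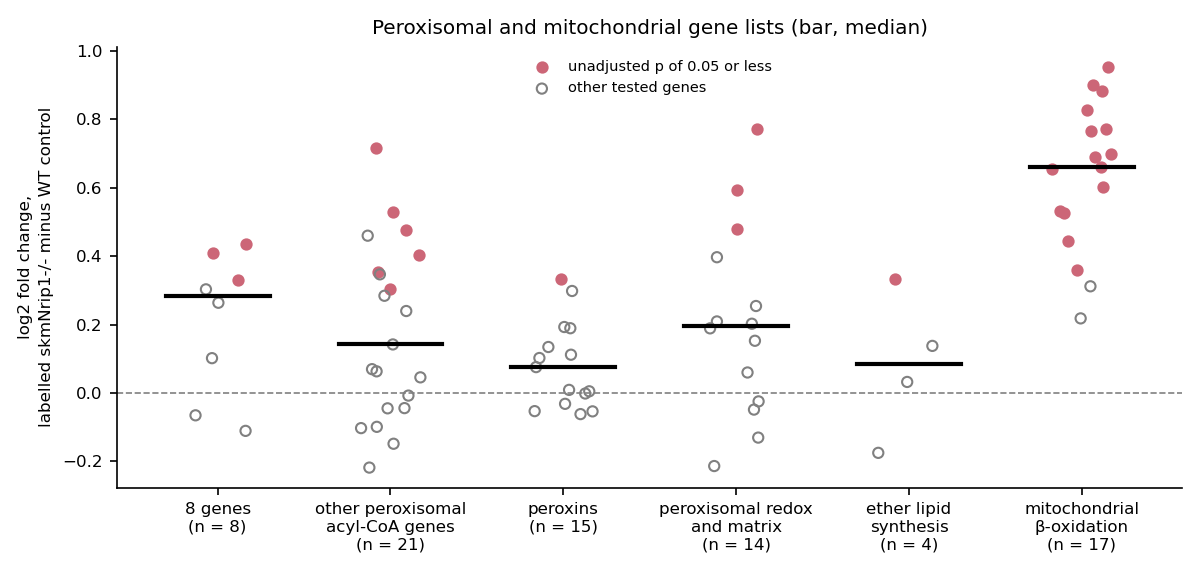
Log2 fold change of each tested gene (vertical axis, libraries labelled skmNrip1-/- minus WT control) in the 8 genes, 4 other peroxisomal lists and mitochondrial β-oxidation, with the median as a bar and genes at an unadjusted p of 0.05 or less filled. The medians are 0.28, 0.14, 0.08, 0.20 and 0.09 for the peroxisomal groups and 0.66 for mitochondrial β-oxidation.

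Mitochondrial β-oxidation was set beside the peroxisomal genes. All 17 listed genes were tested, 2 were called higher, 15 were higher at an unadjusted p of 0.05 or less, and the median log2 fold change was 0.66. The called genes were Hadhb, the thiolase subunit of the mitochondrial trifunctional protein, at 0.95 (limma, adjusted p = 0.0378), and Etfa, a subunit of the electron transfer flavoprotein, at 0.77 (limma, adjusted p = 0.0480). The call of Etfa was lost in each of 5 fits that left out 1 library, and that of Hadhb in 4, all but the fit without WT control replicate 2, with adjusted p-values up to 0.407 and 0.306. Both calls were also lost after rescaling to TPM, without the variance trend and with the replicate block, as given under the processing alternatives. Eci1 had the smallest difference, 0.22 (limma, adjusted p = 0.553), and was at -0.08 after rescaling to TPM. Relative to the all-gene shift of -0.29 at that scale, the list medians were 0.14 for other acyl-CoA genes, 0.09 for peroxins, 0.19 for redox and matrix genes, 0.09 for ether lipid synthesis and 0.65 for mitochondrial β-oxidation. Subtracting that shift nearly undoes the rescaling, so these medians are no separate check. Without subtracting it, the medians of the 4 peroxisomal lists were below 0.

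Of the 8 genes, the 5 enzymes were set against a mitochondrial enzyme of the same reaction, as a log2 ratio within each library. The ratio was of FPKM + 0.1, so it depends on the scaling between libraries only through that 0.1. These pairs were chosen after the values were seen, and the ratios combine values already given, so they are a description and no separate evidence. The log2 ratio of Acaa1a to Acaa2, the mitochondrial thiolase, was -2.02, -2.21 and -2.15 in the 3 WT control replicates in order, against -2.98 and -2.93 in those labelled skmNrip1-/-. That of Scp2 to Acaa2 was 0.014, -0.28 and -0.10, against -0.73 and -0.84. Acaa2 is the partner in both, so these ratios are not independent of each other. The ratio of Hsd17b4 to Hadha, the mitochondrial trifunctional subunit for hydration and dehydrogenation, was -2.46, -2.51 and -2.56 in WT control TA, against -2.98 and -3.02 in those labelled skmNrip1-/-. That of Ehhadh to Hadha was -5.65, -5.98 and -5.83, against -6.47 and -6.36. The ratio of Decr2 to Decr1 was -4.76, -5.03 and -4.46 in WT control TA, against -5.43 and -5.69 in those labelled skmNrip1-/-. In all 5 pairs both libraries labelled skmNrip1-/- lay below every WT control library. The partners alone had log2 fold changes of 0.76 for Acaa2, 0.70 for Decr1 and 0.90 for Hadha, without overlap between groups (limma, adjusted p = 0.0505, 0.0932 and 0.0959). A gene with no difference would also have a lower mean ratio to these partners. The share of all genes with such lower ratios was not counted.

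**Figure D4:**
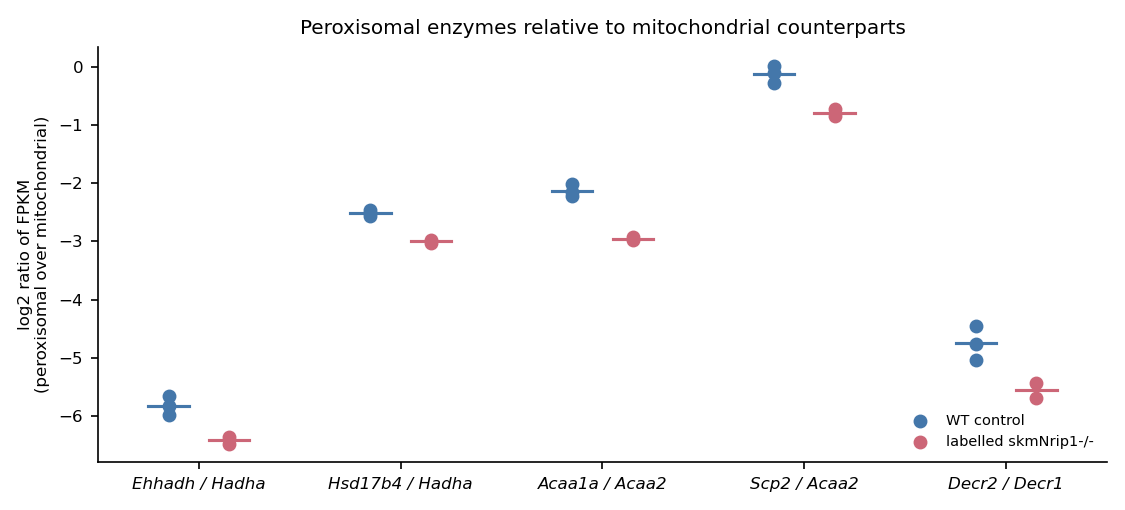
Log2 ratio of FPKM of a peroxisomal enzyme to a mitochondrial enzyme of the same reaction (vertical axis) in each library, with group means as lines, for WT control and for libraries labelled skmNrip1-/-. The ratios lie lower in the libraries labelled skmNrip1-/- for all 5 pairs, for example -2.98 and -2.93 against -2.21 to -2.02 for Acaa1a to Acaa2. The pairs were chosen after the values were seen. A gene with no difference would also have a lower mean ratio to these partners, and the share of all genes with lower ratios was not counted.

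Promoter sequence was examined because PPARα and related receptors bind repeats of AGGTCA. RefSeq windows on GRCm38.p6, from 250 bases before to 50 after a transcription start, matched 6 of the 8 genes with 7 windows. On either strand, AGGTCA occurred in 1 of these 7 windows, against 16.3% of all 32851 windows. That window belongs to Scp2. The half-site, in capitals, begins 109 bases before the start, and the stretch printed to show it spans chr4:108118640-108118667 on the minus strand. This start is close to the 5′ end of the longest annotated transcript, at 108118532, and lies inside the annotated span of the gene, since shorter transcripts begin as far upstream as 108144998.

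Scp2: tctaacacagtAGGTCAaaagaacccat

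Neither TCAAGGTCA nor a direct repeat of AGGTCA with a 1-base spacer, both of which contain the half-site, occurred in the 7 windows, against 0.423% and 0.0396% of all windows. The windows of Abcd3, Acaa1a, Decr2, Ehhadh and Pex11a held none of these motifs, and elements farther from the start were not examined.

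Markers of other cells were compared as FPKM sums. For 4 hepatocyte markers, of interest because these enzymes are abundant in liver, the sums were 122.4 to 165.9 in WT control TA and 124.5 to 151.1 in the libraries labelled skmNrip1-/-. The ranges also overlapped for 5 endothelial (67.6 to 76.8 and 62.1 to 72.7), 5 macrophage (8.71 to 19.0 and 10.8 to 14.0), 4 fibroblast (152.9 to 221.2 and 180.9 to 242.0) and 4 Schwann cell markers (12.2 to 18.7 and 9.76 to 14.1). For 6 slow fiber markers they were 108.9 to 313.2 and 117.4 to 120.6, which hides opposite differences in 2 myosin light chains named after their values were seen. Myl2 had an FPKM of 2.03, 1.85 and 9.68 in WT control TA, against 42.1 and 33.6 in those labelled skmNrip1-/- (limma, log2 fold change 3.46, adjusted p = 0.127). Myl3 had 89.6, 124.4 and 285.3, against 54.1 and 71.3 (limma, log2 fold change -1.24, adjusted p = 0.359). The rest of that list, Myh7, Tnni1, Tnnt1 and Atp2a2, overlapped between groups, with log2 fold changes from -0.20 to 0.35. Blood markers did not overlap, as given above. No marker of these lists was called and none was listed at 0 in all libraries, and the part of these cells in the values of the 8 genes was not tested.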

How the data were processed

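The authors quantified 150-bp paired-end reads with Salmon 1.10.2 on mm10 and summarized them to genes with tximport. They deposited FPKM per gene and library, and how these were computed and the annotation release are not given in the sources used here. The median over genes of the ratio to each gene's geometric mean was 1.002 in every library. The FPKM were thus already level between libraries by this median of ratios. The authors' deposited log2 fold changes and adjusted p-values from DESeq2 1.44.0 were not used.

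FPKM are not counts, so limma 3.58.1 (R 4.3.3; lmFit, eBayes with trend) was run on log2(FPKM + 0.1) for all 5 libraries without covariates, with Benjamini-Hochberg adjustment over the 12148 genes averaging 0.5 FPKM or more. Fold changes on this scale understate those of low genes. The study's legend gives 3 mice per group, and 2 skmNrip1-/- libraries were analysed here. The labels do not say that each library came from a separate mouse, so p-values measure the spread between these libraries. Positions and lengths came from GENCODE M21 (GRCm38), which holds 17008 of the 17015 gene IDs. Tables and plots used Python 3.11.15, pandas 2.3.3, numpy 2.4.6 and matplotlib 3.10.9. The fit was tested on simulated data.

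The 8 genes, the lists, the tests and the naming rule were chosen with earlier results of these data known. Strand of counting is not given in the sources used here. The rule named the 8 genes, Nrip1, paralogs, called genes and the extremes of each list, and the 5 genes most like the member with the largest difference. Marker lists are given as sums, and some genes that meet the rule are not reported here. Alternatives were other pseudocounts, minimum values, scalings and variance models, a replicate block, other call thresholds and leaving out each library.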

Additional observations from a re-analysis of the deposited data

How the results depend on the processing

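None of the 8 genes was called under any alternative. Other minimum values and variance models leave a log2 fold change as it is, and scaling by the median of ratios nearly so. With these fits counted in, 108 recomputed log2 fold changes of the 8 genes kept their direction, many of them by construction, while 4 did not. The exceptions were Abcd2 (-0.033) and Scp2 (-0.20) after rescaling to TPM, Scp2 without replicate 1 labelled skmNrip1-/- (range over single left-out libraries -0.0036 to 0.21) and Decr2 without replicate 2 labelled skmNrip1-/- (range -0.31 to 0.090). Rescaling to TPM shifts all genes nearly alike and gave a median of -0.010 for the 8 genes, 0 of them higher and 1 lower at an unadjusted p of 0.05 or less. Of all genes tested at the TPM scale, 30 were called higher and 63 lower. Pex11g (-0.17) and Eci1 (-0.081) were also below 0 on that scale. Relative to the all-gene shift of -0.29, these values are 0.26 for Abcd2, 0.09 for Scp2, 0.13 for Pex11g and 0.21 for Eci1, so none turned beyond that shift. Without the trend in eBayes, 22 genes were called higher and 3 lower. At an adjusted p of 0.1, 81 were higher and 23 lower. Leaving out single libraries gave 6 to 55 genes higher, 3 to 16 lower, 0 to 5 of the 8 genes higher at an unadjusted p of 0.05 or less and a median of 0.22 to 0.34 for them. It turned Pex11g (-0.049 to 0.23) and Hao2 (-0.43 to 0.0073).

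With the replicate block, 18 genes were called higher and 4 lower, and 1 of the 8 was higher at an unadjusted p of 0.05 or less. WT control replicate 3, which has no partner, then carries no weight. The 2 shared numbers do not mark shared animals, and deviations of same-numbered libraries correlated at 0.06 and 0.10 across genes. The calls of Nrip1, Hadhb and Etfa were lost without the trend (limma, adjusted p = 0.0769, 0.0943 and 0.110) and with the block (0.128, 0.235 and 0.254). Rescaling to TPM ended those of Hadhb (0.0661) and Etfa (0.0846), and a pseudocount of 0.01, no minimum FPKM and robust eBayes ended that of Etfa (0.0505, 0.0557 and 0.0513). Acaa2 was called with a pseudocount of 1 or a minimum of 1 FPKM (both 0.0452). The other causes were not tested. The depth limits Decr2 most.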

Other observations

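PPARs, their partner receptors and coregulators were listed separately. Of 12 such genes, all tested, 1 was called, Nrip1 itself, 2 were higher and 1 lower at an unadjusted p of 0.05 or less, and the median log2 fold change was 0.11, which was -0.12 without WT control replicate 1. Rxrg, a retinoid X receptor that pairs with PPARs, had the lowest value, with an FPKM of 31.4, 22.8 and 20.9 in the 3 WT control replicates in order, against 19.3 and 17.7 in those labelled skmNrip1-/-. These groups did not overlap, and the log2 fold change of -0.41 was not called (limma, adjusted p = 0.458).

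Of 15 other PPAR target genes, 13 were tested, 1 was called higher, 6 were higher at an unadjusted p of 0.05 or less, and the median was 0.68. Without WT control replicate 1 this median was 0.41 and without replicate 2 it was 0.92, and its SD among the WT control libraries was 0.41. The called gene was Fabp3, a fatty acid binding protein of muscle, at 1.92 with a standard error of 0.12 (limma, adjusted p = 0.00293). Its call was lost without either library labelled skmNrip1-/-, with an adjusted p of up to 0.0531. Cyp4a10, a fatty acid ω-hydroxylase that feeds dicarboxylic acids to peroxisomes in liver, had the lowest value, -0.24 (limma, adjusted p = 0.826).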
